A study of Homo sapiens with 2 samples.

Results

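The genes described are 8 genes of the caspase route of cell death: the caspases CASP2, CASP6, CASP8, CASP9 and CASP10, the apoptosome components APAF1 and CYCS, and PARP1. Their probes were taken by gene name from the array annotation, with no use of any measured value. The genes themselves were chosen with earlier results of these data known. They are 8 of 30484 gene names and are read by 17 of the 41000 probes. All 8 names are still current symbols in RefSeq (GRCh38.p14). Of the 17 probes, 14 were counted, meaning that the same RNA, control or miR-204, gave a signal well above background on each array, against 25340 of all probes.

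HEK-293, a line made from human embryonic kidney cells, was transfected either with scramble oligos, called control here, or with a mimic of the microRNA miR-204. Cells of both groups received 75 nM of oligonucleotide, were harvested after 48 h and grew in medium with 10% serum. The RNAs of both groups were hybridized together on an Agilent whole genome array, where each spot is read in Cy3 and in Cy5, so that both RNAs compete for the same probe. Control was Cy3 and miR-204 was Cy5 on the first array, and the dyes were exchanged on the dye-swap array. Separate transfections are named neither in the labels nor in the methods. The arrays were therefore treated as 1 replicate, no test of the conditions was made, and the spread between cultures is unknown. Levels are those of a population of cells, in which fewer cells holding a transcript and less of it per cell cannot be told apart.

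Caspases are proteases made as inactive precursors, and initiator caspases, once brought together on an adaptor, switch on effector caspases that cut cellular proteins. In the mitochondrial route, cytochrome c leaves the mitochondria and binds APAF1, whose wheel of subunits, the apoptosome, recruits and activates caspase-9. In the death receptor route, caspase-8 and caspase-10 are activated at ligand-bound receptors at the cell surface. PARP1, a nuclear enzyme that responds to DNA breaks, is a well known caspase substrate, and its cleavage is often used as a sign of apoptosis. Much of this control acts on proteins, and the arrays measured RNA only.

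A microRNA pairs with its targets mainly through its seed, bases 2 to 8. The mature sequences of both arms of miR-204 are shown, since the labels do not say which arm the mimic carried. The sequence of the microRNA with the same seed as the 5p arm is printed for comparison. They are RefSeq sequences on GRCh38.p14, written 5′ to 3′ with the seed in capitals.
hsa-miR-204-5p: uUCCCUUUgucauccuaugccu
hsa-miR-204-3p: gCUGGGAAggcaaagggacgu
hsa-miR-211-5p: uUCCCUUUgucauccuucgccu
The 5p arm has 22 bases and lies at chr9:70810031-70810052 on the minus strand, and the 3p arm has 21 bases and lies at chr9:70809993-70810013. miR-211-5p lies on chromosome 15, and no other mature microRNA in the table carries the seed it shares with miR-204-5p. Seed matches in the 3′ UTRs of the caspase genes were not analysed here.

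The arrays shared 1 slide and 1 scan time, so slide and scan do not separate the groups. Spots well above background numbered 27424 and 29024 in the control RNA on the first and the dye-swap array, and 28236 and 25284 in the miR-204 RNA. Across the 23224 probes that passed background in every channel, the arrays' log2 ratios had a Pearson correlation of -0.08, and probes are not independent replicates. Of 7 genes known in HEK-293, VIM, NEFL, NEFM, KRT8, KRT18 and CDH2 had a probe that passed background in all 4 channels, and PAX2 had none. Their summed signal was 395200 to 416900 in control and 302200 to 309900 in miR-204 RNA, and 1 NEFM probe was its largest part, with 250900 and 231300 in control and 153100 and 157800 in miR-204 RNA. Mean log2 ratios of the KRT8, KRT18 and CDH2 probes above background in every channel ran from -0.03 to 0.05. Those of the VIM probes were -0.34 and -0.25, those of the NEFL probes -0.27 and -0.01, and that of the NEFM probe -0.63. Of 6 marker genes of other cells, PTPRC, CD3E, ALB, HBB and PECAM1 were above background in no channel and CD68 in all 4, with a summed signal of 108.1 to 109.9 in control and 116.0 to 123.5 in miR-204 RNA. The part of these marker levels in the results was not tested.

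No probe of the 8 genes differed by 2-fold between miR-204 and control RNA with the same sign on both arrays. A call needed a mean log2 ratio of miR-204 over control of at least 1 in size. Lower calls were 0 of 14 probes of these genes, beside 132 of 25340 probes of the array, or 0.521%. Higher calls were also 0 of 14, beside 31 of 25340, or 0.122%. With shares this small, a set of 14 probes could hold no call without standing apart from the array.

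At 1.5-fold, 1 of the 14 probes was higher, a probe of CASP2, beside 323 probes of the array, or 1.27%. None of the 14 was lower by 1.5-fold, beside 663 of the array, or 2.62%. When size was ignored, 5 of the 14 probes were higher on both arrays and 2 were lower on both, beside 24.2% and 23.2% of all counted probes. The other 7 changed sign between the arrays.

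The mean log2 ratio of the 14 probes had a median of 0.06 and ran from -0.15 to 0.62, beside a median of 0.002 over all counted probes. Means of 12 of the 14 probes, or 85.7%, were within 0.25 of 0, against 71.4% of all counted probes. The first array alone gave the 14 a median of 0.13 with 10 above 0, and the dye-swap array alone gave 0.004 with 7 above 0. Over all probes, 52.1% were above 0 on the first array, against 48.8% for the dye swap. Only the first array thus held an excess of ratios above 0, and it was not tested. For a typical probe of these genes, each array's ratio lay 0.16 from the mean of both, and the median size of the mean itself was 0.08. Over all counted probes the same values were 0.16 and 0.15, so this distance between the arrays was not particular to these genes.

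**Figure D1:**
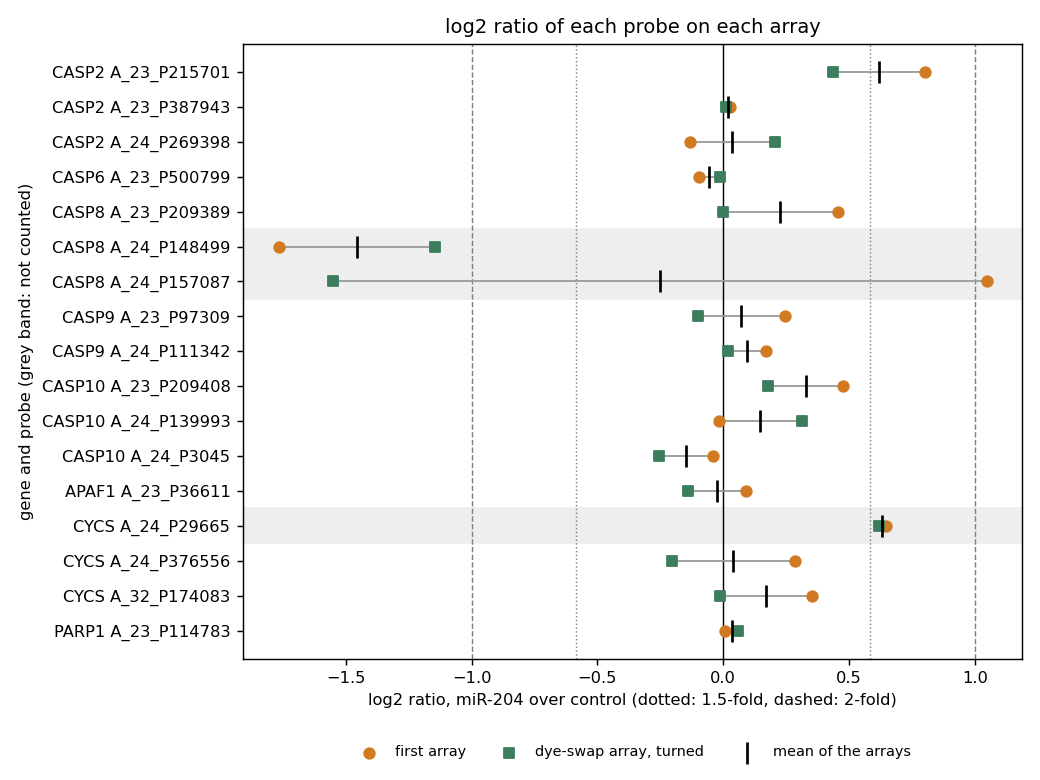
Log2 ratio of miR-204 over control (x axis, log2 units) for each of the 17 probes (y axis) on the first array (circles) and the dye-swap array with its sign turned (squares), with the mean as a bar and grey bands for the 3 probes that were not counted. Among the 14 counted probes only CASP2 A_23_P215701 passed the dotted 1.5-fold line in the mean, at 0.62.

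CASP2 encodes caspase-2, an initiator caspase activated on a scaffold called the PIDDosome. Its probe A_23_P215701, at chr7:142712759-142712818 (coordinates here and below are the files' own, on hg18), gave normalised signals of 23.9 in control and 41.7 in miR-204 RNA on the first array, and of 32.6 and 44.2 on the dye-swap array. Both miR-204 signals lay above both control signals, as they did for 2 of the 14 probes and for 18.5% of all counted probes. The log2 ratios were 0.80 and 0.44, with a mean of 0.62, or 1.54-fold, and 1.08% of all counted probes had a mean as high or higher. This probe was dim: its mean spot signal was only 1.32 to 1.71 times the local background. With normexp background correction, an added offset of 50 and loess scaling, its mean log2 ratio was 0.22. With loess and no background correction it was 0.19. An added offset, or background left in, draws the ratios of dim probes towards 0 whatever the RNA levels, here and below. These settings therefore cannot tell whether the difference of a dim probe holds.

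The other CASP2 probes were brighter and did not show this difference. Probe A_23_P387943, at chr7:142714572-142714631, gave 461 in control and 469 in miR-204 RNA on the first array, and 486 and 489 on the dye-swap array. Its log2 ratios of 0.03 and 0.01 lay close to 0 on both arrays. Probe A_24_P269398, at chr7:142714115-142714174, gave 344 and 314 on the first array and 328 and 378 on the dye-swap array, with log2 ratios of -0.13 and 0.21 that differ in sign. The 3 probes are annotated to the same gene, and the start of the dim probe lies 1356 bases from the nearer of the other starts, which are themselves 457 bases apart. The mean over the 3 probes was 0.23, and without the dim probe the means were 0.02 and 0.04, so the dim probe set the value of the gene.

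**Figure D2:**
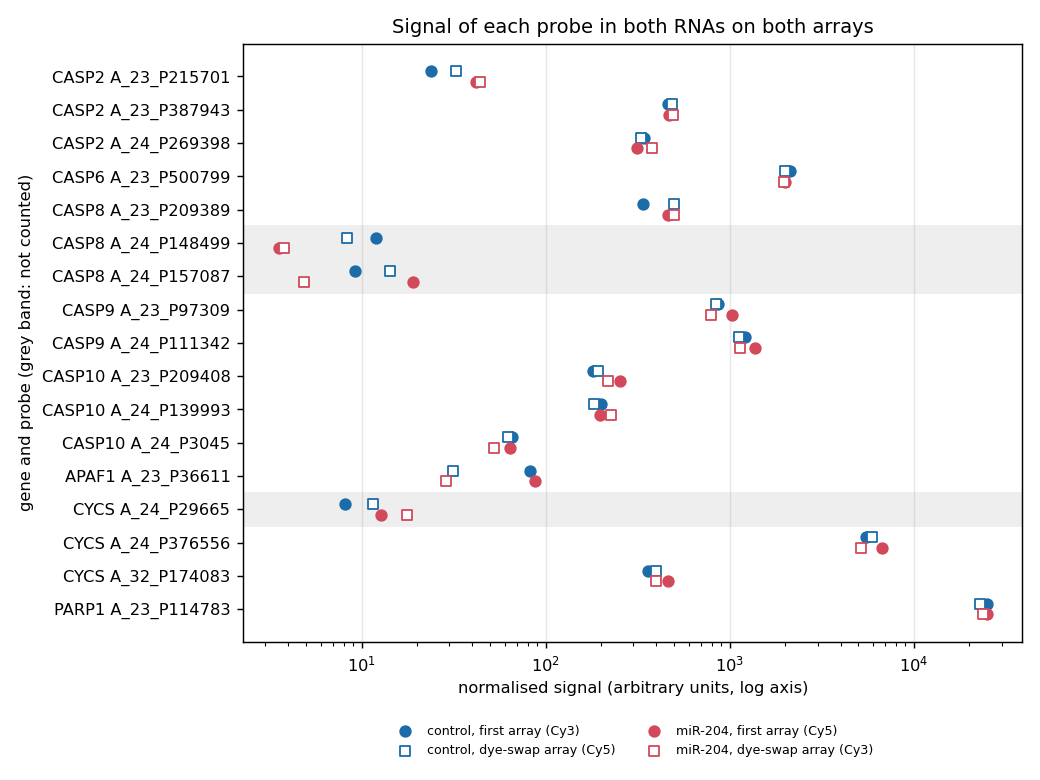
Normalised signal (x axis, arbitrary units, log scale) of each probe (y axis) in control (blue) and miR-204 RNA (red) on the first array (filled circles) and the dye-swap array (open squares), with grey bands for probes that were not counted. Signals of different probes are not comparable with each other, and within a probe CASP2 A_23_P215701 had both miR-204 signals, 41.7 and 44.2, above both control signals, 23.9 and 32.6, as in 18.5% of all counted probes.

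CASP8 encodes caspase-8, the main initiator of the death receptor route. Its probe A_23_P209389, at chr2:201859729-201859788, was spotted 10 times on each array, of which 8 spots on each were free of outlier flags. Normalised signals were 337 in control and 462 in miR-204 RNA on the first array, and 498 in both RNAs on the dye-swap array. The processed signals, before scaling between the arrays, were 399 and 542 on the first array and 419 and 425 on the dye-swap array. Which of the 4 signals stood apart thus depended on that scaling, while on both scales the RNAs were further apart on the first array. The log2 ratios were 0.46 and -0.001, with a mean of 0.23.

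The single spots show how far this is from spot noise within an array. Before quantile normalisation the 8 spots of the first array gave log2 ratios of 0.33 to 0.55, with a mean of 0.44 ± 0.08 (SD over 8 spots), and all 8 were above 0. On the dye-swap array they gave -0.11 to 0.14, with a mean of 0.02 ± 0.08 (SD over 8 spots), and 4 were above 0. The spots of the arrays did not overlap, so the difference between the arrays was larger than the spread within either of them. The repeated spots share 1 labelled RNA per channel and are not replicates of the transfection.

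The remaining CASP8 probes could not be read. Probe A_24_P148499, at chr2:201844501-201844560 and annotated to another transcript, was well above background in no channel, with normalised signals of 12.04 and 8.35 in control and 3.54 and 3.77 in miR-204 RNA. No fold is given, since neither RNA was measured above background. Probe A_24_P157087, at chr2:201860083-201860142, was well above background only in the Cy5 channel of each array, which held miR-204 RNA on the first and control RNA on the dye-swap array. Each RNA was thus above background on 1 array only, and no fold is given.

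CASP10 encodes caspase-10, a close relative of caspase-8 at death receptors, and its gene is a neighbour of CASP8 on chromosome 2. Probe A_23_P209408, at chr2:201792741-201792800, gave 181 in control and 252 in miR-204 RNA on the first array, and 193 and 218.5 on the dye-swap array. Both miR-204 signals were above both control signals, which places it with the CASP2 probe among the 18.5% of counted probes where this held. In the processed signals, before scaling between the arrays, they overlapped, at 212.7 and 163.3 in control and 297.5 and 185.5 in miR-204 RNA. The log2 ratios were 0.48 and 0.18, with a mean of 0.33, or 1.26-fold, and 92.4% of all counted probes had a mean at or below it. Across the 13 alternative settings this probe's ratio ran from 0.18 to 0.48.

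A probe whose start is 137 bases away, A_24_P139993 at chr2:201792604-201792663, gave 199 and 197 on the first array and 182 and 226 on the dye-swap array. Its log2 ratios were -0.02 and 0.31, so that here the higher value was on the dye-swap array, where the neighbouring probe had its lower one. Probe A_24_P3045, at chr2:201765956-201766015 and annotated to another transcript, gave 66.0 and 64.2 on the first array and 62.4 and 52.3 on the dye-swap array. Its mean of -0.15 was the lowest of the 14 probes, and with normexp and loess it was 0.03. The 3 probes of CASP10 therefore did not share a sign, and their mean was 0.11.

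**Figure D3:**
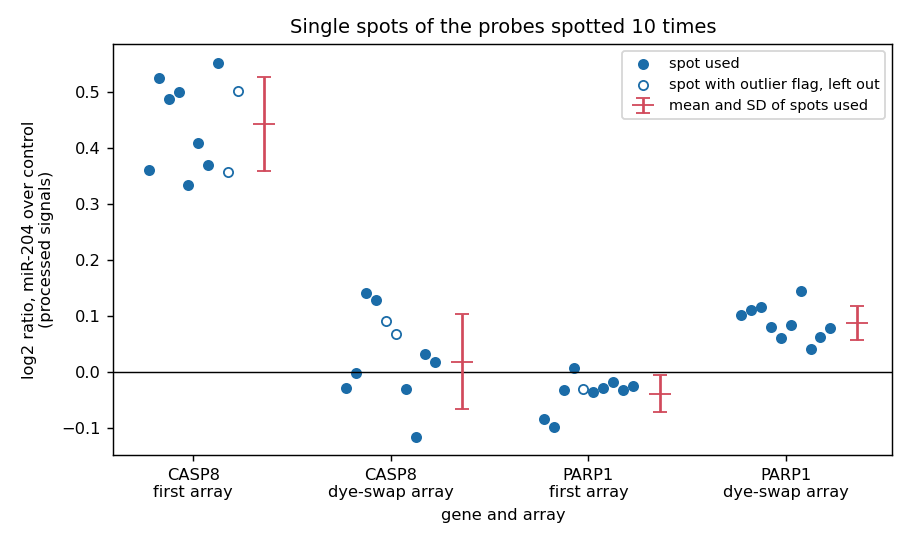
Log2 ratio of miR-204 over control from processed signals (y axis, log2 units) of every single spot of the CASP8 and PARP1 probes that were spotted 10 times, by gene and array (x axis), with open circles for flagged spots and bars for the mean and SD of the spots used. CASP8 spots ran from 0.33 to 0.55 on the first array and from -0.11 to 0.14 on the dye-swap array, while all PARP1 spots used lay between -0.10 and 0.14.

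CASP9 encodes caspase-9, the initiator that the apoptosome activates. Probe A_23_P97309, at chr1:15691566-15691625, gave 869 in control and 1030 in miR-204 RNA on the first array, and 844 and 787 on the dye-swap array. Probe A_24_P111342, at chr1:15691449-15691508, gave 1218 and 1370 on the first array and 1128 and 1144 on the dye-swap array. The starts of these probes are 117 bases apart, and both had miR-204 above control on the first array, while on the dye-swap array one was below control and the other level with it. The mean log2 ratios were 0.07 and 0.09, and 63.0% and 66.9% of counted probes lay at or below them.

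APAF1 encodes the scaffold protein of the apoptosome and was read by 1 probe, A_23_P36611, at chr12:97652548-97652607. It gave 82.3 in control and 87.8 in miR-204 RNA on the first array, and 31.5 and 28.7 on the dye-swap array, where the miR-204 signal was not well above background. On the first array, where both RNAs were measured, the log2 ratio was 0.09. The mean over the arrays, -0.02, rests in part on a signal not well above background. The control RNA was measured on both arrays, and its level on the dye-swap array relative to the first was -1.38 on the log2 scale. For the miR-204 RNA it was -1.615, resting in part on the signal not well above background. The mean of both was -1.5, and only 0.209% of all counted probes lay at or below it. The probe thus differed between the arrays far more than most probes did, in both RNAs.

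CYCS encodes somatic cytochrome c, the electron carrier whose release from mitochondria starts apoptosome assembly. Probe A_24_P376556, whose annotated match covers 33 bases at chr7:25124790-25124822, gave 5522 in control and 6726 in miR-204 RNA on the first array, and 5926 and 5148 on the dye-swap array. Its log2 ratios of 0.28 and -0.20 had opposite signs, and the mean was 0.04. Probe A_32_P174083, at chr7:25124845-25124904, gave 360 and 460 on the first array and 399 and 396 on the dye-swap array, with log2 ratios of 0.35 and -0.01 and a mean of 0.17. Both CYCS probes had the miR-204 RNA higher on the first array alone.

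A CYCS probe further along the gene, A_24_P29665 at chr7:25126534-25126593, was well above background in no channel. Its normalised signals were 8.17 and 11.5 in control and 12.8 and 17.7 in miR-204 RNA, and no fold is given. CYCS has many processed copies in the genome, and the RefSeq table lists 45 pseudogenes named after it. Whether any of them contributes to the signals of the CYCS probes was not tested.

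CASP6 encodes caspase-6, an effector caspase known for cutting nuclear lamins. Its probe A_23_P500799, at chr4:110830094-110830153, gave 2127 in control and 1990 in miR-204 RNA on the first array, and 1993 and 1975 on the dye-swap array. The log2 ratios of -0.10 and -0.01 were below 0 on both arrays, and their mean of -0.05 lay near the middle of all counted probes, of which 60.0% were at or above it. Both miR-204 signals were below both control signals, in 1 of the 14 probes and in 17.2% of all counted probes. In the processed signals, before scaling between the arrays, the RNAs overlapped, at 2547 and 1687 in control and 2332 and 1674 in miR-204 RNA. CASP6 and the CASP10 probe A_24_P3045 were the 2 probes of the 14 that were lower on both arrays.

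PARP1 was read by 1 probe spotted 10 times, A_23_P114783, at chr1:224615440-224615498. Its normalised signals were 24880 in control and 25010 in miR-204 RNA on the first array, and 22870 and 23850 on the dye-swap array. The log2 ratios were 0.01 and 0.06, with a mean of 0.03, and they ran from 0.01 to 0.06 over the alternative settings. In the processed signals, 9 spots of the first array gave a mean of -0.04 ± 0.03 (SD over 9 spots) with 1 above 0, and 10 spots of the dye-swap array gave 0.09 ± 0.03 (SD over 10 spots) with all 10 above 0. Although its spots were tight, the mean of PARP1 thus changed sign between arrays before quantile normalisation.

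**Figure D4:**
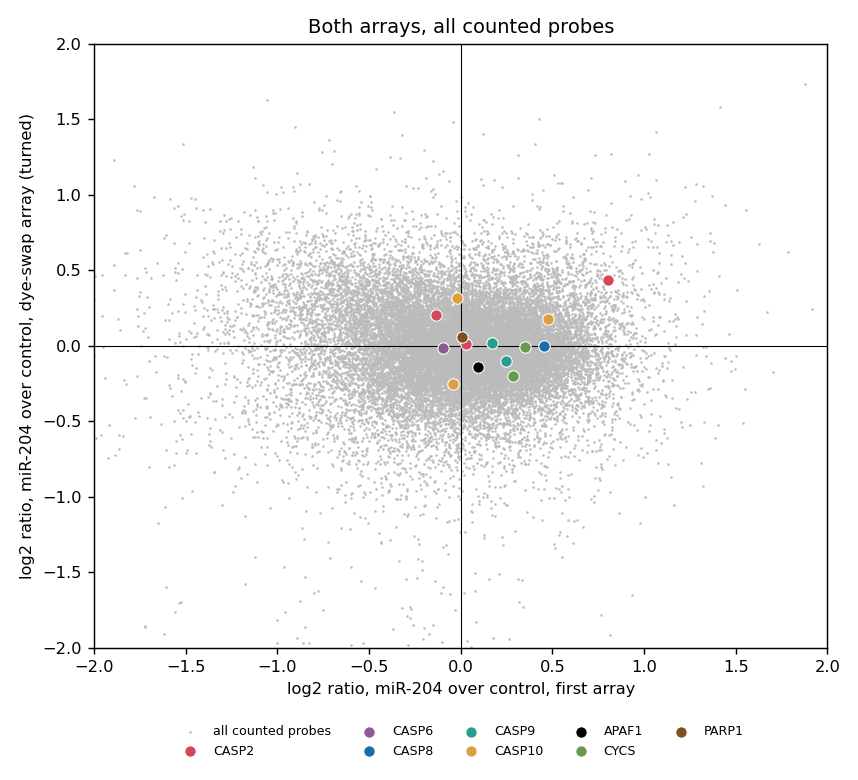
Log2 ratio of miR-204 over control on the dye-swap array with its sign turned (y axis) against the first array (x axis) for all counted probes (grey) and the 14 probes of the 8 genes (coloured by gene), with 71 probes outside the plotted range of 2 in either direction. The CASP2 probe at 0.80 and 0.44 and the CASP10 probe at 0.48 and 0.18 lie furthest into the upper right among the coloured points, and the CASP8 probe lies on the horizontal line at 0.46.

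Averaged over its counted probes, each gene gave a mean log2 ratio between -0.05 and 0.23. CASP8 and CASP2 were at 0.23, CASP10 and CYCS at 0.11, CASP9 at 0.08, PARP1 at 0.03, APAF1 at -0.02 and CASP6 at -0.05. For CASP8 the arrays behind this mean gave 0.46 and -0.001, for CYCS 0.32 and -0.11, and for CASP9 0.21 and -0.04. The differences between neighbouring genes in this order were smaller than the differences between the arrays of CASP8, CYCS and CASP9, and the order was not tested.

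The related genes of the pathway were described through 40 further genes in 8 lists. They had 55 probes, of which 41, of 33 genes, were counted. No counted probe passed 2-fold in either direction. At 1.5-fold, 2 of the 41 were lower and 0 were higher, beside the 2.62% and 1.27% of all counted probes given above. Of the 41, 15 were higher on both arrays and 10 lower on both, beside 24.2% and 23.2% of all counted probes, and the median of their means was 0.03.

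Upstream of caspase-2, both PIDDosome partners were higher on both arrays, as were 24.2% of all counted probes. CRADD, the adaptor that binds caspase-2, gave log2 ratios of 0.18 and 0.21, and PIDD1, which the array names LRDD, gave 0.09 and 0.20. Both means, of 0.19 and 0.15, were far under 1.5-fold.

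Of the death receptors and their adaptors, 12 of 15 probes were counted, of which 6 were higher and 3 lower on both arrays, with a median of 0.09, and the shares over the array were again 24.2% and 23.2%. The highest was a probe of TNFRSF10B, a receptor for the death ligand TRAIL, with 5326 and 5820 in control and 7690 and 7035 in miR-204 RNA and a mean log2 ratio of 0.40. The lowest above background in all 4 channels was a probe of CFLAR, a catalytically inactive relative of caspase-8 that restrains it, with 363 and 319 in control and 286 and 271 in miR-204 RNA and a mean of -0.29. For both of these probes the signals of the RNAs did not overlap, which held upward for 18.5% and downward for 17.2% of all counted probes. With normexp and loess the values were 0.37 and -0.30, close to those given. The other TNFRSF10B probe, also above background in all 4 channels, had a mean of 0.12, and of 0.08 with normexp and loess. A dimmer CFLAR probe, not above background in all 4 channels, had a mean of -0.42, and of -0.15 with normexp and loess.

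Around the apoptosome, the regulators AVEN and APIP had means of 0.15 and 0.23, and APIP gave 0.60 and -0.15 on the arrays. The 4 mitochondrial factors ran from -0.15 for HTRA2, a protease that leaves mitochondria with cytochrome c, to 0.09 for DIABLO, which relieves the block by inhibitors of apoptosis. None of the 4 had the same sign on both arrays, beside 24.2% of all counted probes higher and 23.2% lower on both. Of the inhibitors of apoptosis, 6 of 9 probes were counted, with a median of 0.10 and a range from -0.24 for BIRC2 to 0.37 for NAIP.

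Downstream, the nuclease that cuts DNA in apoptosis is DFFB, held inactive by DFFA. A DFFB probe, A_24_P370626, gave 101.5 and 101.8 in control and 46.8 and 76.3 in miR-204 RNA, with log2 ratios of -1.12 and -0.42 and a mean of -0.77, the lowest of the 41. It was -0.30 with normexp and loess, and the other counted DFFB probe had a mean of 0.18. Both DFFA probes were lower on both arrays, as were 23.2% of all counted probes. The DFFA means were -0.20 and -0.31, and they were -0.23 and -0.34 with normexp and loess.

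The relatives of PARP1 and the enzyme PARG, which removes poly(ADP-ribose), had 8 of 10 probes counted, with a median of -0.01. The lowest was TNKS2, a tankyrase, with 79.5 and 63.5 in control and 53.2 and 40.9 in miR-204 RNA. Its log2 ratios were -0.58 and -0.64, with a mean of -0.61, and with normexp and loess the mean was -0.22. The highest was PARG, at 0.66 and -0.03 on the arrays and 0.32 in the mean.

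**Figure D5:**
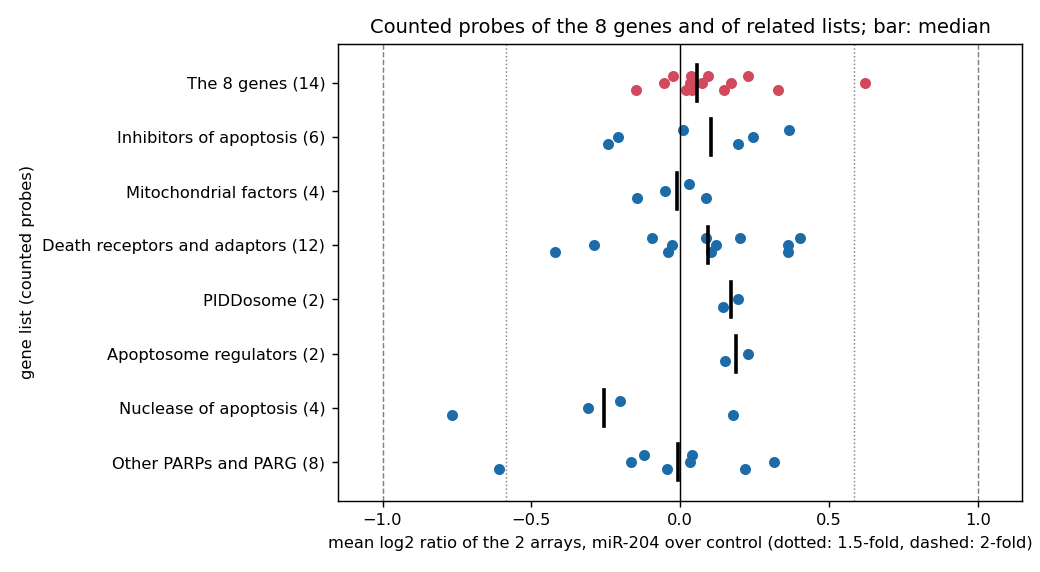
Mean log2 ratio of the arrays, miR-204 over control (x axis, log2 units), of every counted probe of the 8 genes (red) and of 7 of the related gene lists (blue; y axis, with the number of counted probes), with a bar for the median. No point passes the dashed 2-fold lines, and CASP2 at 0.62, DFFB at -0.77 and TNKS2 at -0.61 are the 3 points past the dotted 1.5-fold lines.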

How the data were processed

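Per the file headers, the authors extracted the arrays with Feature Extraction 9.5.3.1, and probe positions are on hg18. The deposited processed signals are intensity values that the software had corrected for background and dye bias, and signals not above background were replaced by surrogates. The deposited mean and local background signals are uncorrected intensity values. The log ratio column, also deposited, divides the Cy5 by the Cy3 processed signal on a log10 scale. The authors' deposited series table holds quantile normalised log2 ratios of miR-204 over control. The software's own errors and p-values of the log ratio were not used.

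Control spots and spots flagged as non-uniform or as population outliers were left out (208 spots with a flag on either array, 5 of them of the genes described). Log2 processed signals were averaged per probe and quantile normalised over the 4 channels with limma 3.58.1 in R 4.3.3. Control was subtracted from miR-204 within each array, with the dye swap turned, and the 2 log2 ratios were averaged, with no pseudocount. A call needed 2-fold in the mean and the same sign on both arrays. Gene values are means over counted probes. The shares of probes whose RNAs did not overlap were added after the values were seen. Percentages of all counted probes give the place of a probe and are not p-values. Of these steps, only the rule for calls was tested on simulated log2 ratios with known changes. The alternatives changed the normalisation, background correction, deposited values used, filter on dim probes, outlier flags, arrays, centring, threshold, test and gene summary.

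The 8 genes and the gene lists were chosen with earlier results of these data known. Every probe of the 8 genes is reported, and of each list the lowest and highest probe well above background in all 4 channels. The results of 1 list are not reported here. Other list probes are named where a list has few counted probes or a count is small, and these were chosen after their values were seen. Exons, introns and UTRs are not given, since hg18 gene models were not used here. Precision is limited by the number of arrays.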

Additional observations from a re-analysis of the deposited data

How the results depend on the processing

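The counts of calls among the probes of the 8 genes moved under 2 alternatives. At 1.5-fold, 1 of 14 probes was higher (CASP2 A_23_P215701), beside 1.27% of all counted probes. With no filter on signal, 1 of 17 probes was lower, beside 401 of 40975 probes of the array. It was the CASP8 probe A_24_P148499, which was well above background in no channel, and the CASP8 mean became -0.49. The median over the 14 probes ran from 0.004 with the dye-swap array alone to 0.13 with the first array alone. The dim CASP2 probe ran from 0.19 to 0.80, and the CASP2 mean was 0.06 with normexp and loess and 0.02 by its brightest probe.

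Across the array, 132 counted probes were lower by 2-fold and 31 higher. These counts were 7 and 2 with loess, either after normexp with an offset of 50 or with no background correction. Both of these settings draw the ratios of dim probes towards 0. Counts were 401 and 251 of 40975 probes with no filter, and 30 and 18 of the 23224 probes above background in all 4 channels. They were 21 and 13 with 2-fold on each array, and 118 and 18 with quantile normalised ratios. The first array alone gave 726 and 193, and the dye-swap array alone 209 and 77. The part of each setting's handling of dim probes in these counts was not tested.

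The methods' t-test and limma were run over arrays that count as 1 replicate, so they do not compare the conditions. After Benjamini-Hochberg adjustment neither called any probe of the array. Unadjusted, at a threshold of 0.05 and any fold, limma called 1 of the 14 probes, CASP2 A_23_P215701, and the methods' t-test 0. Over the array, limma called 1174 of 25340 counted probes and the methods' t-test 1610 of 25340. With so many calls over the array, 1 call among 14 probes does not set the CASP2 probe apart. With 2-fold and no adjustment, limma called 129 probes of the array lower and 31 higher, and the methods' t-test 18 lower and 15 higher. The tests differ in pairing: limma took the log2 ratios within each array, which pair the RNAs. The methods' t-test compared the signals of the RNAs unpaired. Blocking on pairs of cultures was not possible, because the arrays are 1 dye swap of 1 pair of RNAs.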
